A study of Arabidopsis thaliana with 6 samples.

Results

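LNJ-OX and jazD, the stunted genotypes of this Arabidopsis thaliana series, were compared directly with each other, without Col-0 as the reference. The comparison used 4 of the 6 samples, 2 libraries of LNJ-OX and 2 of jazD, and covered all genes. LNJ-OX plants overexpress LITTLE NINJA, a synthetic microProtein made from a conserved part of the ABI5-binding protein AFP2, from a constitutive viral promoter in a Col-0 background. jazD carries mutations in JAZ genes and is described by the study as a decuple mutant. The labels do not name the mutated genes, nor whether the libraries of LNJ-OX came from 1 transgenic line or several. Wild-type Col-0, also with 2 libraries, entered the fit and is given only for orientation. The untreated plants, all 21 days old, came from soil under long-day conditions, and the roots were not taken.

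Jasmonic acid (JA) signalling is held in check by JAZ proteins, which bind MYC transcription factors and recruit corepressors through the adaptor NINJA. When the hormone is perceived, JAZ proteins are degraded and the MYC factors are released. One branch of the response runs through MYC factors and serves defence against chewing insects. A second branch needs ethylene as well and runs through ERF transcription factors to plant defensins. Salicylic acid (SA) drives defence against pathogens that feed on living cells, and its pathway and the JA pathway are known to restrain each other in leaves.

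The libraries held 14850297 and 11046638 counts in LNJ-OX, 10164591 and 10218756 in jazD, and 15003290 and 11878135 in Col-0. Values are CPM, counts scaled to a common library size (1e+06) with trimmed mean of M-values factors. The median gene differed by 0.25 on the log2 scale between the LNJ-OX libraries and by 0.26 between the jazD libraries. It differed by 0.41 between the Col-0 libraries, which also entered the estimate of the spread. More than 2-fold apart were 11.6% of genes in the Col-0 pair, 6.62% in the LNJ-OX pair and 6.3% in the jazD pair. In the 4 pairings of an LNJ-OX with a jazD library, the median gene differed by between 0.26 and 0.41. Called genes had an adjusted p-value under 0.01 (edgeR quasi-likelihood test, Benjamini-Hochberg adjustment) together with a log2 fold change, LNJ-OX over jazD, above 1 or below -1. An adjusted p-value under 0.05 with any fold change is referred to as the wider threshold. Nothing in the sources used here says that the libraries of a genotype came from separate cultivations beyond the study's term biological replicates, and p-values measure the spread between these libraries.

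Of 21374 genes tested, 96 were called higher in LNJ-OX than in jazD (0.449%) and 71 were called lower (0.332%). At the wider threshold, 280 genes were higher (1.31%) and 161 were lower (0.753%). An unadjusted p-value under 0.05 (edgeR) was found for 2808 of the 21374 genes. The higher genes summed to 5871 and 4899 CPM in LNJ-OX, against 1142 and 964 CPM in jazD. The lower genes summed to 1828 and 1385 CPM in LNJ-OX, against 24204 and 19919 CPM in jazD. The lower set was thus smaller in number and larger in transcript abundance in jazD, but not in LNJ-OX. Of its jazD sum, PDF1.2a and PDF1.3 held means of 4391 and 4076 CPM. For 70 of the 96 higher genes the Col-0 mean lay nearer to jazD, and for 65 of the 71 lower genes it lay nearer to LNJ-OX, on the log2(CPM + 1) scale. Leaving out a jazD library lowered the counts to 33 higher and 39 lower (without replicate 1) or to 19 higher and 33 lower (without replicate 2).

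**Figure D1:**
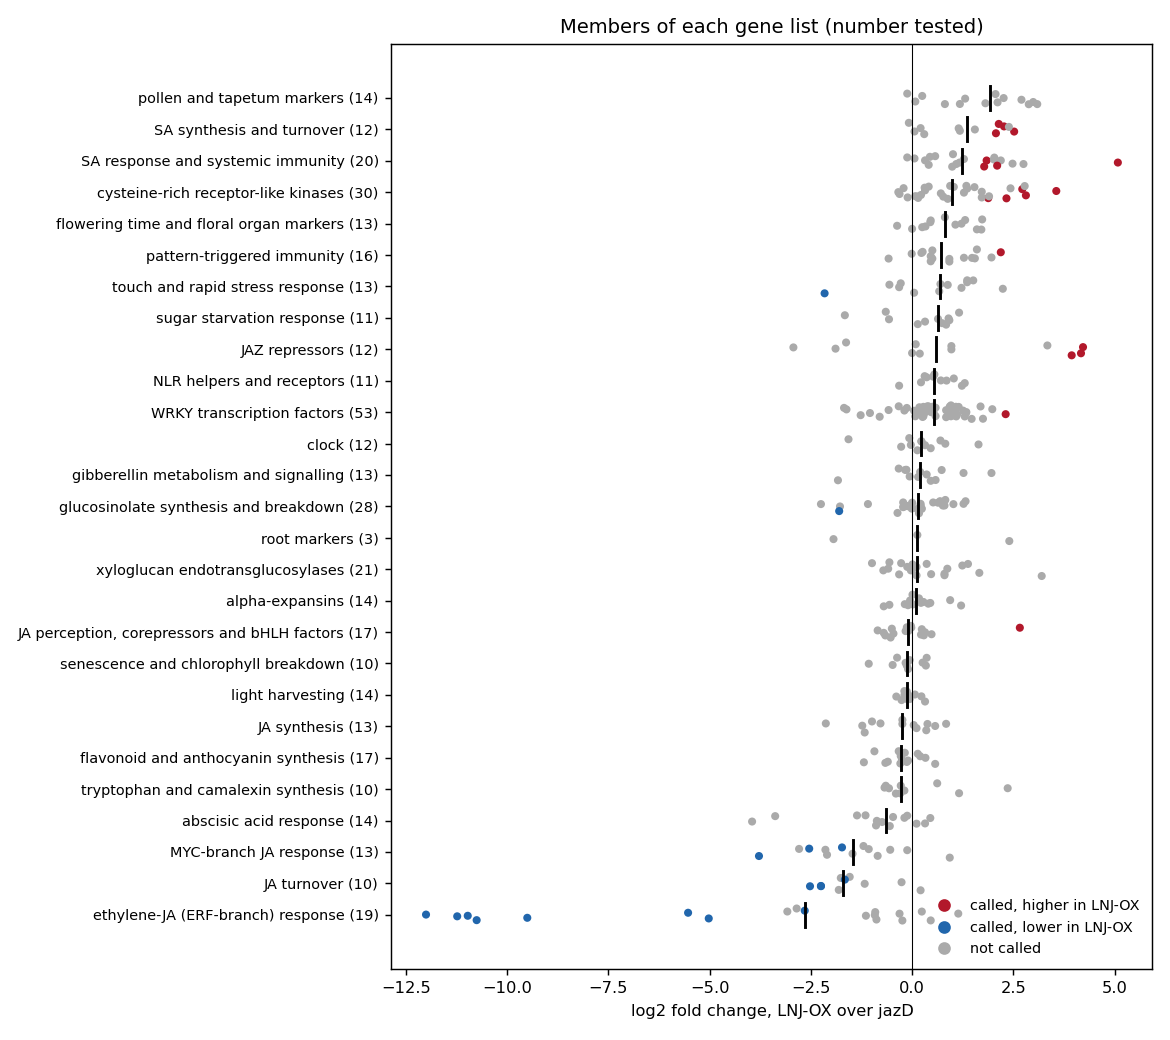
Log2 fold change, LNJ-OX over jazD, of the tested members of each gene list, with the number tested in brackets. Each point is a gene, red or blue where called, and each black bar is the median of a list. The 3 lowest medians were those of the ethylene-JA list (-2.65), the JA turnover list (-1.71) and the MYC-branch list (-1.47).

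The genes that define the genotypes were examined first. AFP2 (AT1G13740) had 63.5 and 50.0 CPM in LNJ-OX, against 8.81 and 9.14 CPM in jazD and 8.19 and 11 CPM in Col-0. The difference of 2.66 on the log2 scale (SE 0.26, edgeR adjusted p 0.000442) was in the direction of the label. The call was lost without either jazD library. The transgene was built from AFP2, so reads of the transgene and of the native gene cannot be told apart at this locus. NINJA (AT4G28910), the adaptor itself, had 70.6 and 65.2 CPM in LNJ-OX, against 75.1 and 73.9 CPM in jazD, without a call (-0.13 on the log2 scale, SE 0.22, edgeR adjusted p 0.865).

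JAZ1, JAZ2 and JAZ6 rose in LNJ-OX over jazD, and these were the 3 called genes among the 12 JAZ repressors tested. JAZ6 (AT1G72450) had 91.0 and 82.7 CPM in LNJ-OX, against 5.24 and 4.05 CPM in jazD and 94.0 and 68.7 CPM in Col-0. JAZ2 (AT1G74950) had 59.4 and 38.6 CPM in LNJ-OX, against 2.31 and 3.11 CPM in jazD. JAZ1 (AT1G19180) had 62.9 and 38.6 CPM in LNJ-OX, against 3.78 and 2.83 CPM in jazD. The log2 fold changes were 4.22 (SE 0.29) for JAZ6, 4.17 (SE 0.35) for JAZ2 and 3.94 (SE 0.35) for JAZ1, with edgeR adjusted p-values between 3e-05 and 0.000218, and all 3 calls held without any single library. The jazD libraries were low and the LNJ-OX and Col-0 libraries high, with no overlap. Between LNJ-OX and jazD, such a gap held for all 96 genes called higher and so adds nothing to these calls.

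Of the other JAZ genes tested, none was called. JAZ5, JAZ7 and JAZ9 were lower in both jazD libraries than in every LNJ-OX and Col-0 library. The share of all genes tested with that order is not given here. JAZ7 had 2.96 and 1.2 CPM in LNJ-OX, against 0.210 and 0.189 CPM in jazD and 1.13 and 0.657 CPM in Col-0 (edgeR adjusted p 0.0693), with 2 counts in each jazD library. JAZ9 had 277 and 241 CPM in LNJ-OX, against 152 and 112 CPM in jazD and 365 and 254 CPM in Col-0 (log2 fold change 0.97, SE 0.30, edgeR adjusted p 0.149). JAZ8 and JAZ10, which encode repressors that resist hormone-triggered degradation in full or in part, were lower in LNJ-OX at the wider threshold. JAZ10 (AT5G13220) had 21.1 and 12 CPM in LNJ-OX, against 54.0 and 69.8 CPM in jazD (log2 fold change -1.89, SE 0.32, edgeR adjusted p 0.0123). JAZ8 (AT1G30135) had 1.71 and 0.516 CPM in LNJ-OX, against 10.7 and 6.98 CPM in jazD (log2 fold change -2.93, SE 0.62, edgeR adjusted p 0.0358). JAZ5 had 22.8 and 15.5 CPM in LNJ-OX, against 10.4 and 9.24 CPM in jazD and 15.8 and 15.8 CPM in Col-0 (log2 fold change 0.97, SE 0.27, edgeR adjusted p 0.113). JAZ3, JAZ11 and JAZ12 had log2 fold changes between 0.00 and 0.19, with overlapping libraries. JAZ4 was below the count filter. Gene counts do not show whether a transcript is intact, so a JAZ gene with counts in jazD is not thereby shown to be functional.

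Of the 17 JA receptor, corepressor and bHLH factor genes tested, AFP2 was the only one called. MYC2 (AT1G32640), the principal factor of the insect-related branch, had 135 and 106 CPM in LNJ-OX, against 251 and 184 CPM in jazD (log2 fold change -0.85, SE 0.33, edgeR adjusted p 0.269). The median of the list was -0.09, against 0.00 for all genes tested. None of the 13 JA synthesis genes tested was called either, although 5 had an unadjusted p-value under 0.05 (edgeR), all of their adjusted values being 0.121 or more. AOS, which makes the first intermediate specific to the pathway, had 261 and 117 CPM in LNJ-OX, against 619 and 265 CPM in jazD (log2 fold change -1.23, SE 0.45, edgeR adjusted p 0.24). AOC1, the cyclase that follows it, had 67.1 and 14.2 CPM in LNJ-OX, against 249 and 108 CPM in jazD (log2 fold change -2.13, SE 0.61, edgeR adjusted p 0.121). The replicates of both genotypes differed widely for these genes.

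Of 10 genes of JA turnover tested, 4 fell in LNJ-OX relative to jazD and none rose, with a list median of -1.71. The other 6, CYP94B3 (log2 fold change 0.21) among them, passed neither threshold. CYP94B1 (AT5G63450), which hydroxylates the active conjugate JA-isoleucine, had 2.90 and 3.36 CPM in LNJ-OX, against 16.4 and 19.5 CPM in jazD (log2 fold change -2.52, SE 0.33, edgeR adjusted p 0.00274). JRG21 (AT3G55970), an oxygenase that inactivates JA, had 50.7 and 28.4 CPM in LNJ-OX, against 193 and 185 CPM in jazD (log2 fold change -2.25, SE 0.30, edgeR adjusted p 0.00309). AT5G05600, annotated as an oxygenase of the same superfamily, had 60.8 and 40.9 CPM, against 291 and 192 CPM (log2 fold change -2.25, SE 0.31, edgeR adjusted p 0.00329). ST2A (AT5G07010), a sulfotransferase of hydroxylated JA, had 11.1 and 9.90 CPM in LNJ-OX, against 34.9 and 31.3 CPM in jazD (log2 fold change -1.66, SE 0.25, edgeR adjusted p 0.0062). Every jazD library lay above every LNJ-OX library for these 4 genes. It did so for all 71 genes called lower, so this order adds nothing to the calls. The list had no calls without jazD replicate 1, 1 without jazD replicate 2 and 2 without LNJ-OX replicate 2.

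Of the 13 MYC-branch response genes tested, 3 fell and none rose, and 6 were lower at the wider threshold. BSMT1 (AT3G11480), a methyltransferase that makes methyl salicylate and methyl benzoate, had 10.9 and 10.1 CPM in LNJ-OX, against 131 and 157 CPM in jazD and 7.43 and 5.82 CPM in Col-0 (log2 fold change -3.78, SE 0.26, edgeR adjusted p 3e-05). CLH1 (AT1G19670), a chlorophyllase, had 231 and 163 CPM in LNJ-OX, against 1295 and 1003 CPM in jazD (log2 fold change -2.54, SE 0.32, edgeR adjusted p 0.00221). THI2.1 (AT1G72260), a thionin, had 14.7 and 15 CPM in LNJ-OX, against 53.1 and 45.6 CPM in jazD (log2 fold change -1.73, SE 0.24, edgeR adjusted p 0.00388). Col-0 had 279.7 and 235 CPM of CLH1, near LNJ-OX, and 27.7 and 37.3 CPM of THI2.1, between the 2 other genotypes. NATA1, NAC055 and CORI3 passed only the wider threshold, with log2 fold changes of -2.79, -2.10 and -2.14. VSP2 (AT5G24770), a vegetative storage protein and a common marker of the branch, had 306 and 173 CPM in LNJ-OX, against 857 and 473 CPM in jazD, and did not pass (edgeR adjusted p 0.0866). The list kept 1 call without jazD replicate 1, without jazD replicate 2 or without LNJ-OX replicate 2.

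The lowest list median was that of the ethylene-JA branch. Of 19 members tested, 8 fell in LNJ-OX relative to jazD and none rose, with a list median of -2.65. ORA59 (AT1G06160), an ERF factor that activates plant defensin genes, had 1.97 and 1.64 CPM in LNJ-OX, against 56.2 and 61.9 CPM in jazD and 2.14 and 2.44 CPM in Col-0 (log2 fold change -5.02, SE 0.28, edgeR adjusted p 9.54e-06). ERF2 (AT5G47220), a related factor, had 16.1 and 7.57 CPM in LNJ-OX, against 88.5 and 61.5 CPM in jazD (log2 fold change -2.65, SE 0.35, edgeR adjusted p 0.00274). Not every ERF gene differed in this way. ERF1 had 3.42 and 0.947 CPM in LNJ-OX, against 2.31 and 2.92 CPM in jazD (edgeR adjusted p 0.918), and ERF1A, ERF4, ERF5, ERF6, ERF11 and ERF104 were not called. PDF1.4, a defensin gene outside the group described next, differed by 1.14 on the log2 scale and did not pass (edgeR adjusted p 0.282).

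PDF1.2a, PDF1.2b, PDF1.2c and PDF1.3, which encode plant defensins, small secreted antifungal proteins, had the largest fold changes of the list. PDF1.2a (AT5G44420) had 2.44 and 2.67 CPM in LNJ-OX, against 4543 and 4239 CPM in jazD and 69.4 and 252 CPM in Col-0. PDF1.3 (AT2G26010) had 2.83 and 1.12 CPM in LNJ-OX, against 4379.7 and 3772 CPM in jazD and 4.28 and 43.6 CPM in Col-0. PDF1.2c (AT5G44430) had 0.263 and 0.344 CPM in LNJ-OX, against 1522 and 1022 CPM in jazD and 47.1 and 197 CPM in Col-0. PDF1.2b (AT2G26020) had 0.197 and 0.516 CPM in LNJ-OX, against 816 and 862 CPM in jazD and 8.44 and 27.9 CPM in Col-0. For each of the 4 genes the jazD libraries were above both Col-0 libraries and the LNJ-OX libraries were below them. The log2 fold changes were -10.75 (SE 0.75) for PDF1.2a, -10.97 (SE 1.13) for PDF1.3, -12.00 (SE 0.89) for PDF1.2c and -11.23 (SE 0.75) for PDF1.2b, with edgeR adjusted p-values between 2.89e-05 and 0.000529. Together the 4 genes took 0.000586 and 0.000489% of all counts in LNJ-OX, against 1.06 and 1.03% in jazD. Their coding sequences of 243 bases are between 91.4 and 94.7% identical in the TAIR10.1 assembly, so the split of reads among the copies is uncertain while their sum is less so.

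**Figure D2:**
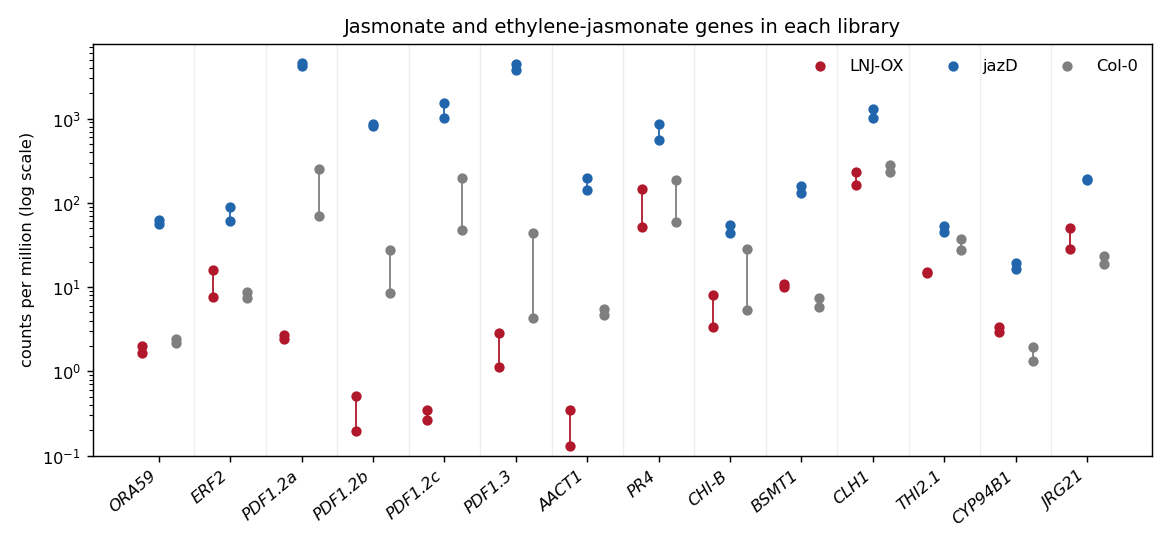
CPM on a log axis for 14 genes of the ERF branch, the MYC branch and JA turnover. Each point is a library and each line joins the libraries of a genotype. PDF1.2a stood at 2.44 and 2.67 CPM in LNJ-OX, against 4543 and 4239 CPM in jazD, with Col-0 between them, whereas THI2.1 differed far less.

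AACT1 (AT5G61160), an acyltransferase that makes antifungal conjugates, had 0.132 and 0.344 CPM in LNJ-OX, against 199 and 141 CPM in jazD and 4.73 and 5.45 CPM in Col-0 (log2 fold change -9.50, SE 0.44, edgeR adjusted p 5.33e-06). It is no copy of the defensins, and its libraries were ordered as theirs were, LNJ-OX below Col-0 and jazD above. AT3G23550, annotated as a MATE efflux protein, had 3.49 and 3.10 CPM in LNJ-OX, against 157 and 149 CPM in jazD (log2 fold change -5.53, SE 0.29, edgeR adjusted p 7e-06). PR4 and CHI-B, which encode chitin-binding and chitinase proteins, passed only the wider threshold. PR4 had 145 and 52.2 CPM in LNJ-OX, against 865 and 559.6 CPM in jazD (log2 fold change -2.85, SE 0.59, edgeR adjusted p 0.0324). The list had between 7 and 9 calls whichever library was left out.

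ERF factors such as ORA59 bind the GCC box, GCCGCC, and the promoters of the most changed genes are shown for that reason. The 250 bases before the annotated gene start were read from TAIR10.1, on the strand of the gene. The count files hold gene identifiers and no coordinates, and the labels name TAIR10. Capitals mark GCCGCC on either strand. The windows are chr5:17907639-17907888 (minus strand) for PDF1.2a, chr2:11088873-11089122 (plus strand) for PDF1.2b, chr5:17909508-17909757 (minus strand) for PDF1.2c, chr2:11087030-11087279 (plus strand) for PDF1.3, chr1:1882657-1882906 (plus strand) for ORA59 and chr5:24608355-24608604 (plus strand) for AACT1.
PDF1.2a: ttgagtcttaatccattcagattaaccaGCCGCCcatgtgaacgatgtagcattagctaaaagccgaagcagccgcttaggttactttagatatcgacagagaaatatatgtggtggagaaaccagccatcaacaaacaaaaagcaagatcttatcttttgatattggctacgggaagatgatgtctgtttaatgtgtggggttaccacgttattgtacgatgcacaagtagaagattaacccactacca
PDF1.2b: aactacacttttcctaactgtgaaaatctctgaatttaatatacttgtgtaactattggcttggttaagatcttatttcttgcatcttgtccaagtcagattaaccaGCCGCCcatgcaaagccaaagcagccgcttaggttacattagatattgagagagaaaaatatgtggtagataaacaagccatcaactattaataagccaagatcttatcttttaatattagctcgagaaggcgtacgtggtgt
PDF1.2c: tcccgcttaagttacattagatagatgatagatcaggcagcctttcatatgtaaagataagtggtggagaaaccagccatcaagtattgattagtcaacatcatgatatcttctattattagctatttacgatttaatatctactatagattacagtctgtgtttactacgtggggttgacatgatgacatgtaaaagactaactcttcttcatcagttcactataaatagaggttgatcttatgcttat
PDF1.3: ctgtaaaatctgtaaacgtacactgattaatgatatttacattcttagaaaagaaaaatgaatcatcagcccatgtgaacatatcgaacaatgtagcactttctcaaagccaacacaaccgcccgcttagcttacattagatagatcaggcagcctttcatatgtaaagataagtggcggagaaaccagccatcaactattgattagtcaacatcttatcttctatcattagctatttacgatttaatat
ORA59: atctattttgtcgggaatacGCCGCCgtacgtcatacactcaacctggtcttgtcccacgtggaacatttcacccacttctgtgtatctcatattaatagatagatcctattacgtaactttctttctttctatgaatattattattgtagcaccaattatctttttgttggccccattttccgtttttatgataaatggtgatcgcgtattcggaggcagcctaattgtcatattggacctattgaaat
AACT1: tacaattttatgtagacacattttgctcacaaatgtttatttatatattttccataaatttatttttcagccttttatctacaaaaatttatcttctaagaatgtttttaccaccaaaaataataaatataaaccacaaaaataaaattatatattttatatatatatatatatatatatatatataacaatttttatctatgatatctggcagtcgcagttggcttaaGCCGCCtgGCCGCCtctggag
The motif stood 222 bases before the start of PDF1.2a, 143 before that of PDF1.2b and 230 before that of ORA59, counted from its first base. AACT1 held 2 matches, 13 and 21 bases before its start. PDF1.2c and PDF1.3 held none in this window.

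Among the 71 genes called lower in LNJ-OX, 9 held GCCGCC in the 250 bases before the start (12.7%), against 0 of the 96 called higher and 428 of 21295 tested genes with a window (2.01%). The 9 were ORA59, PDF1.2a, PDF1.2b, AACT1, ERF15, ZAT6, GSTU13, UGT85A4 and AT3G59930, the last annotated as a defensin-like protein. The G-box CACGTG, which MYC factors bind, was present before 10 of the lower genes (14.1%), 5 of the higher genes (5.21%) and 1505 of all (7.07%). ORA59 and ERF15 held both motifs. A match is a description of the sequence and does not show that a factor binds there, and these shares were given no test.

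**Figure D3:**
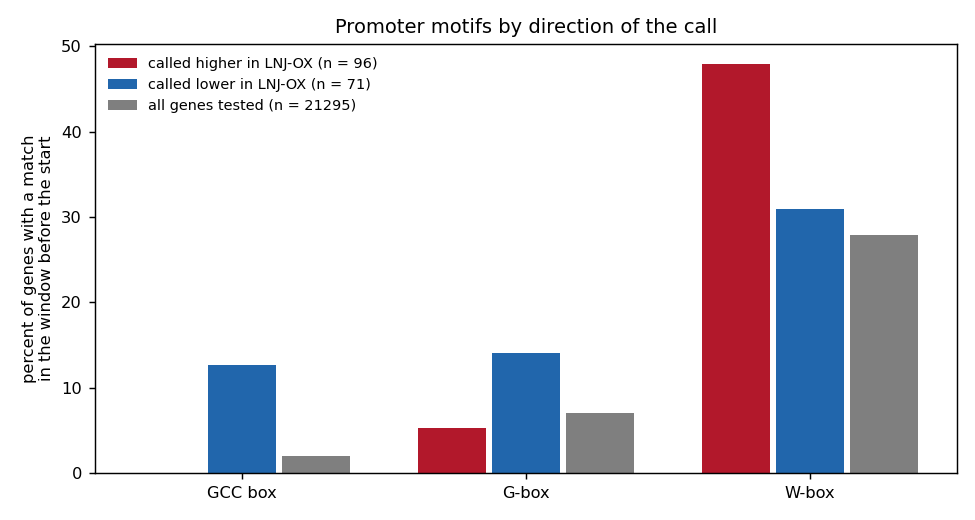
Percent of genes with a match to each motif on either strand in the 250 bases before the start, for genes called higher in LNJ-OX, genes called lower and all genes tested. The GCC box stood before 12.7% of the lower genes and none of the higher genes, against 2.01% of all, and the W-box before 47.9% of the higher genes, against 27.9% of all.

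In the other direction, 4 of 12 genes of SA synthesis, its regulation and SA turnover rose in LNJ-OX over jazD and none fell. At the wider threshold 7 were higher, and the list median was 1.36. EPS1, UGT74F1, UGT74F2 and CBP60a had log2 fold changes between -0.08 and 0.30 and passed neither threshold. ICS1 (AT1G74710), the isochorismate synthase of the main SA pathway, had 137 and 132 CPM in LNJ-OX, against 30.6 and 25.1 CPM in jazD and 19.2 and 24.3 CPM in Col-0 (log2 fold change 2.27, SE 0.25, edgeR adjusted p 0.000814). PBS3 (AT5G13320), which conjugates isochorismate to glutamate in the same pathway, had 128 and 118 CPM in LNJ-OX, against 25.9 and 17.1 CPM in jazD (log2 fold change 2.52, SE 0.27, edgeR adjusted p 0.000662). The transcription factors that activate ICS1 rose with it. CBP60g (AT5G26920) had 162 and 141 CPM in LNJ-OX, against 35.9 and 32.8 CPM in jazD (log2 fold change 2.14, SE 0.33, edgeR adjusted p 0.00637). SARD1 (AT1G73805) had 97.3 and 88.0 CPM in LNJ-OX, against 24.5 and 19.7 CPM in jazD (log2 fold change 2.07, SE 0.23, edgeR adjusted p 0.00103). EDS5, the transporter that exports the precursor from the chloroplast, had 63.8 and 61.4 CPM in LNJ-OX, against 28.4 and 26.9 CPM in jazD (log2 fold change 1.18, SE 0.23, edgeR adjusted p 0.023).

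Of the 20 genes of SA response and systemic immunity tested, 4 rose and none fell, with 19 log2 fold changes above 0 and a median of 1.22. EDS1 (AT3G48090) and PAD4 (AT3G52430), lipase-like partners in immune signalling, were both called. EDS1 had 106 and 108 CPM in LNJ-OX, against 29.7 and 30.3 CPM in jazD (log2 fold change 1.84, SE 0.26, edgeR adjusted p 0.00421). PAD4 had 109 and 91.8 CPM in LNJ-OX, against 30.4 and 28.0 CPM in jazD (log2 fold change 1.78, SE 0.23, edgeR adjusted p 0.00243). AED1 (AT5G10760), an apoplastic aspartyl protease, had 375 and 306 CPM in LNJ-OX, against 97.8 and 61.2 CPM in jazD (log2 fold change 2.1, SE 0.31, edgeR adjusted p 0.00534). PR2 (AT3G57260), a glucanase and SA marker, had 1093 and 869 CPM in LNJ-OX, against 298 and 181 CPM in jazD, and passed only the wider threshold (log2 fold change 2.03, SE 0.36, edgeR adjusted p 0.0149). The 4th call of the list was AT5G52810, a Rossmann-fold protein with 44.9 and 29.7 CPM in LNJ-OX, against 1.26 and 0.943 CPM in jazD and 12.4 and 24 CPM in Col-0 (log2 fold change 5.08, SE 0.44, edgeR adjusted p 0.000174).

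The calls of both SA lists, other than that of AT5G52810, depended on single libraries. Each of them was lost without jazD replicate 2, and all but that of PBS3 were lost without jazD replicate 1. Those of CBP60g, PAD4 and AED1 were also lost without LNJ-OX replicate 1, and that of CBP60g with library totals. AT5G52810 lies in a stretch of chromosome 5 described below. The synthesis list had 1 call without jazD replicate 1 and none without jazD replicate 2, and the response list had 1 in each case. The medians held, at 1.58 and 1.22 for synthesis and 1.83 and 1.03 for response. With 1 library left, a genotype was assumed to vary as the others did.

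**Figure D4:**
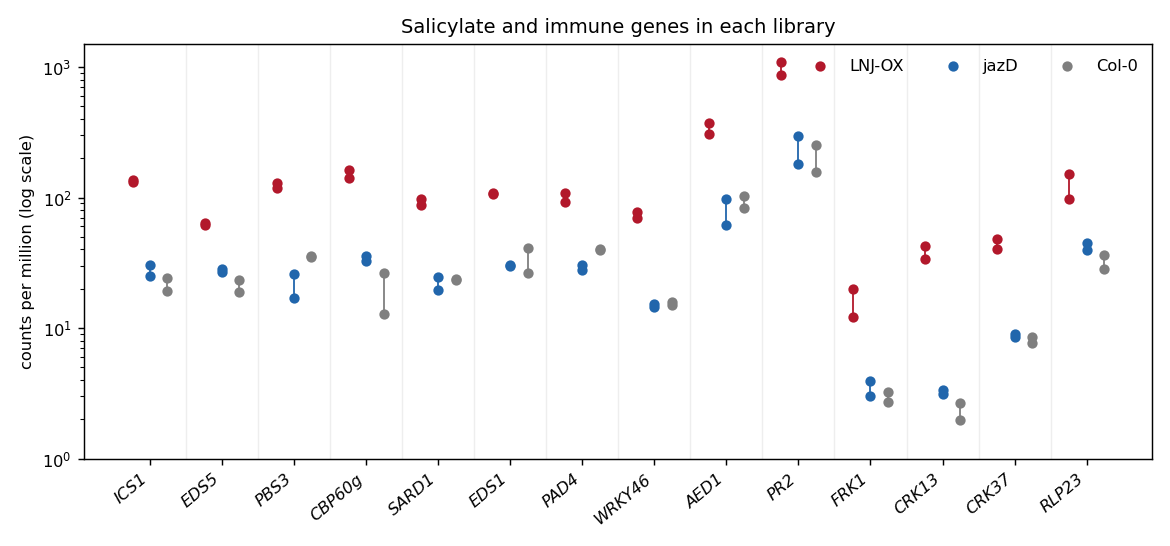
CPM on a log axis for 14 genes of SA synthesis, SA response, pattern-triggered immunity and the cysteine-rich kinases. Each point is a library and each line joins the libraries of a genotype. The LNJ-OX libraries lay above both jazD libraries for every gene shown, for example 137 and 132 CPM in LNJ-OX, against 30.6 and 25.1 CPM in jazD, for ICS1. The same order held for all 96 genes called higher and so adds nothing to those calls. Its share among all genes tested is not given here.

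Of 30 cysteine-rich receptor-like kinases tested, a family many of whose members respond to SA and pathogens, 5 rose and none fell, 12 were higher at the wider threshold, and the median was 0.99. CRK13 (AT4G23210) had 42.7 and 33.9 CPM in LNJ-OX, against 3.36 and 3.11 CPM in jazD (log2 fold change 3.56, SE 0.29, edgeR adjusted p 0.000114). CRK37 (AT4G04500) had 47.9 and 40.3 CPM in LNJ-OX, against 9.02 and 8.48 CPM in jazD (log2 fold change 2.33, SE 0.25, edgeR adjusted p 0.000644). CRK7, CRK12 and CRK23 had log2 fold changes of 1.88, 2.81 and 2.72, while those of CRK17, CRK40, CRK29 and CRK21 were below 0, between -0.34 and -0.11. Members of this family are similar in sequence, and CRK7, CRK12, CRK13 and CRK23 belong to 1 row of 17 tested genes on chromosome 4, from CRK7 to CRK23, whose median was 1.03. The list kept 3 calls without jazD replicate 1 and 1 without jazD replicate 2.

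Among 16 genes of pattern-triggered immunity tested, FRK1 was called and 6 were higher at the wider threshold, with a median of 0.71. RBOHD, the oxidase of the immune oxidative burst, differed by -0.58 on the log2 scale (edgeR adjusted p 0.447). FRK1 (AT2G19190), a receptor kinase induced by flagellin, had 19.9 and 12.2 CPM in LNJ-OX, against 3.04 and 3.96 CPM in jazD (log2 fold change 2.19, SE 0.36, edgeR adjusted p 0.00977). It lost its call under 9 of 15 alternative fits, among them those without Col-0 in the fit and with limma-voom. SOBIR1, the kinase partner of receptor-like proteins, had 381 and 341 CPM in LNJ-OX, against 141 and 96.8 CPM in jazD (log2 fold change 1.6, SE 0.28, edgeR adjusted p 0.0147). RLP11 (AT1G71390), a receptor-like protein outside the lists, had 29.5 and 28.2 CPM in LNJ-OX, against 0.629 and 1.98 CPM in jazD and 1.07 and 0.751 CPM in Col-0 (log2 fold change 4.43, SE 0.43, edgeR adjusted p 0.000419). None of 11 intracellular receptors and helpers was called, while 5 had an unadjusted p-value under 0.05 (edgeR), and ADR1-L1 and ADR1-L2 passed the wider threshold at 1.3 and 1.23.

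WRKY factors bind the W-box, TTGACC or TTGACT, in promoters of immune genes. Of 53 WRKY genes tested, WRKY46 was called, 4 were higher and 1 was lower at the wider threshold, and the median was 0.53. WRKY46 (AT2G46400) had 77.7 and 70.0 CPM in LNJ-OX, against 14.6 and 15.3 CPM in jazD (log2 fold change 2.31, SE 0.23, edgeR adjusted p 0.000438). WRKY45, the lower one, had 8.16 and 5.51 CPM in LNJ-OX, against 18.2 and 24 CPM in jazD (log2 fold change -1.62, SE 0.30, edgeR adjusted p 0.0172). The W-box stood in the 250 bases before 46 of the 96 genes called higher (47.9%), 22 of the 71 called lower (31.0%) and 5937 of the 21295 tested (27.9%).

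The promoters of FRK1 and CRK37 are shown as called immune genes with 2 W-box matches each, at chr2:8329945-8330194 (minus strand) and chr4:2238120-2238369 (plus strand) of TAIR10.1. Capitals mark the W-box on either strand.
FRK1: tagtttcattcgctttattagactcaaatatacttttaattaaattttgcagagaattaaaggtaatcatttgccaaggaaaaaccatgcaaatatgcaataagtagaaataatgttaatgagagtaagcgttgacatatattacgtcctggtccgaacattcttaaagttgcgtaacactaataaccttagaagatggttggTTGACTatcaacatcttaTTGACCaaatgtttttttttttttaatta
CRK37: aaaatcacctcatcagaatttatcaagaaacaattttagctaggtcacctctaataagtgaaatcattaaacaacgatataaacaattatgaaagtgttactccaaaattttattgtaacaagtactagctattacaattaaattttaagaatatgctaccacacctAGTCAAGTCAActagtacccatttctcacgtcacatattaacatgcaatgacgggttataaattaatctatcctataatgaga
The matches began 29 and 47 bases before the start of FRK1 and 78 and 83 bases before that of CRK37. Those of CRK37 overlap and form a single stretch. ICS1, PBS3, SARD1, CBP60g, PAD4 and WRKY46 held no match in this window, so the motif was not shared by all of the genes that rose.

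Other defence and growth lists held few calls. Of 28 glucosinolate genes tested, CYP79B3 fell, the enzyme that turns tryptophan into the precursor of indole glucosinolates, with 58.7 and 40.5 CPM in LNJ-OX, against 165 and 181 CPM in jazD (log2 fold change -1.80, SE 0.29, edgeR adjusted p 0.0097). MYB34, an activator of that branch, had 24.6 and 12.7 CPM, against 58.9 and 69.3 CPM (edgeR adjusted p 0.0139). CYP79B3 lost its call with a filter at 1 CPM and without any single LNJ-OX or jazD library. CYP71A12, of camalexin synthesis, was higher at the wider threshold, with 52.9 and 19.4 CPM in LNJ-OX, against 10.2 and 3.96 CPM in jazD (edgeR adjusted p 0.0465). Of 13 touch and rapid stress genes tested, 4 were higher in LNJ-OX at the wider threshold, and the median was 0.70. These were CML37 (2.24), XTH22 (1.51), CML12 (1.36) and CZF1 (1.22), given as log2 fold changes. ZAT6, a zinc-finger factor and the only called member, fell by 2.16 on the log2 scale (SE 0.34, edgeR adjusted p 0.00797), a call lost with library totals, limma-voom and 3 of the fits without 1 library. RGL3, a DELLA repressor of gibberellin responses, had 3.88 and 3.87 CPM in LNJ-OX, against 15.6 and 12.1 CPM in jazD (log2 fold change -1.83, edgeR adjusted p 0.0132). LUX, of the evening complex of the clock, had 14.6 and 11.5 CPM in LNJ-OX, against 39.0 and 38.6 CPM in jazD (edgeR adjusted p 0.0159).

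No gene was called in the lists of flavonoid synthesis (17 tested, 2 with an unadjusted p-value under 0.05 in edgeR), sugar starvation (11 and 7), senescence (10 and 1), light harvesting (14 and 0) or alpha-expansins (14 and 1). These lists bear on growth and leaf state, and their medians lay between -0.27 and 0.64. The highest median was that of sugar starvation, the list with 7 of 11 such p-values. Over all genes tested, 2808 of 21374 had an unadjusted p-value under 0.05 (edgeR). In the abscisic acid list (14 tested, none called, 5 with an unadjusted p-value under 0.05 in edgeR) 1 library stood apart. RAB18 had 8.62 and 6.71 CPM in LNJ-OX, against 9.65 and 228 CPM in jazD, and RD29B had 3.95 and 0.516 CPM in LNJ-OX, against 1.26 and 46.8 CPM in jazD. The high values were those of jazD replicate 2 alone.

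Among called genes, those with the largest differences in mean CPM in favour of LNJ-OX, after AED1, were AT5G45510, Hsp70-2 and RING1. Hsp70-2 (AT5G02490), a cytosolic chaperone, had 199 and 214 CPM in LNJ-OX, against 67.2 and 46.9 CPM in jazD (log2 fold change 1.86, SE 0.29, edgeR adjusted p 0.00724). RING1 (AT5G10380), a ubiquitin ligase, had 258 and 151 CPM in LNJ-OX, against 53.7 and 57.0 CPM in jazD (log2 fold change 1.89, SE 0.31, edgeR adjusted p 0.00977). RING1 lost its call with library totals, with a filter at 1 CPM and without LNJ-OX replicate 1, jazD replicate 1 or jazD replicate 2, and Hsp70-2 lost its call without any single LNJ-OX or jazD library. Among called genes in favour of jazD, AT1G52000, annotated as a mannose-binding lectin, came after PDF1.2a, PDF1.3 and PDF1.2c with 117 and 86.8 CPM in LNJ-OX, against 1293 and 939.7 CPM in jazD (log2 fold change -3.45, SE 0.34, edgeR adjusted p 0.000423). MYB47 (AT1G18710) had 3.03 and 1.89 CPM in LNJ-OX, against 120.1 and 108 CPM in jazD (log2 fold change -5.51, SE 0.41, edgeR adjusted p 4.55e-05). AT1G15125, annotated as a methyltransferase, had 10.9 and 9.47 CPM in LNJ-OX, against 371 and 323 CPM in jazD (log2 fold change -5.09, SE 0.35, edgeR adjusted p 3e-05). AT4G11310, a papain-family protease, had 0.263 and 0.344 CPM in LNJ-OX, against 15.8 and 9.90 CPM in jazD (log2 fold change -5.37, SE 0.58, edgeR adjusted p 0.000806).

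Several genes had no count in 1 of the 2 genotypes compared. AT5G49440 had 93.5 and 72.5 CPM in LNJ-OX and no count in either jazD library, against 129 and 92.5 CPM in Col-0. With a floor of 3 counts in each jazD library, it was at least 278-fold higher in LNJ-OX. AT5G45490, annotated as a P-loop nucleoside triphosphatase, had 52.8 and 33.6 CPM in LNJ-OX and no count in jazD, at least 145-fold higher. AT5G55790 (34.0 and 30.2 CPM in LNJ-OX) and AT5G49640 (36.4 and 27.2 CPM) had no count in jazD either, so that LNJ-OX exceeded jazD at least 107-fold for AT5G55790 and at least 106-fold for AT5G49640. In the opposite direction, AT5G28810, annotated as a Ulp1 protease family protein, had no count in LNJ-OX, against 125 and 177 CPM in jazD, which on the same floor made LNJ-OX lower by at least 662-fold. It had 0.063 and 0 CPM in Col-0.

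Of the 9 genes called higher that had at most 3 counts in each jazD library, 8 lay between AT5G44510 and AT5G56910 on chromosome 5, a stretch chosen after its values were seen. That stretch held 24 of the 96 genes called higher among 983 tested (2.44%), against 14 of 3916 (0.358%) on the rest of chromosome 5 and 58 of 16398 (0.354%) on chromosomes 1 to 4. Genes called lower made up 0.61% of the stretch, 0.358% of the rest of the chromosome and 0.311% of the other chromosomes. In the stretch, 12 tested genes had no count in either jazD library and a mean of at least 1 CPM in LNJ-OX, against 2 on the rest of chromosome 5 and 3 on the other chromosomes. For 18 of its 24 higher genes the Col-0 mean lay nearer to LNJ-OX, against 1 of 14 on the rest of the chromosome and 7 of 58 elsewhere. The median log2 fold change of all genes in the stretch was 0.09.

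**Figure D5:**
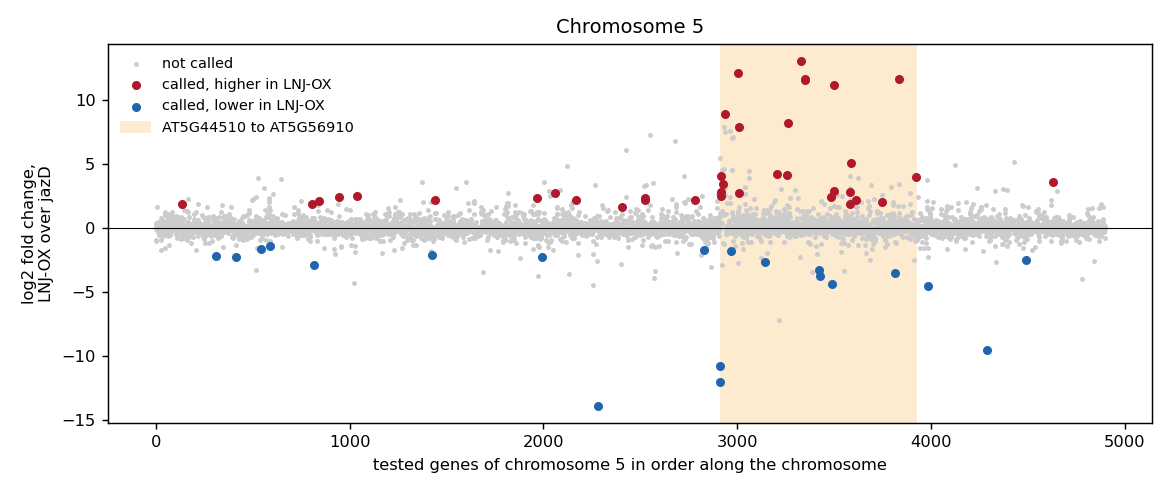
Log2 fold change, LNJ-OX over jazD, of the tested genes of chromosome 5, placed in their order along the chromosome. Red and blue points are called genes and the shaded stretch runs from AT5G44510 to AT5G56910. The stretch held 24 of the 38 higher calls on the chromosome, and the 2 defensin genes PDF1.2a and PDF1.2c lay just before it.

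AT5G52810, the SA-response gene named above, was among the 24. TAO1 (AT5G44510), an intracellular immune receptor at the start of the stretch, had 32.4 and 34.8 CPM in LNJ-OX, against 5.35 and 4.52 CPM in jazD and 45.6 and 17.5 CPM in Col-0 (log2 fold change 2.77, SE 0.41, edgeR adjusted p 0.00553). AT5G44530, a subtilase with 38.2 and 38.1 CPM in LNJ-OX, against 2.83 and 1.70 CPM in jazD, belonged to the same row of 4 calls among 10 neighbouring genes. AT5G45490, AT5G45500 and AT5G45510 are listed in sequence and were all called. AT5G45500 had 90.3 and 73.8 CPM in LNJ-OX, against 0.524 and 0.189 CPM in jazD (log2 fold change 7.84, SE 0.43, edgeR adjusted p 7.67e-06). AT5G45510, a leucine-rich repeat protein, had 216 and 188 CPM in LNJ-OX, against 34.6 and 27.0 CPM in jazD (log2 fold change 2.71, SE 0.27, edgeR adjusted p 0.000495). Without the genes of the stretch, 72 genes were called higher and 65 lower.

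Organ markers differed between libraries. The 15 pollen and tapetum markers summed to 61.0 and 291 CPM in LNJ-OX, against 50.3 and 51.0 CPM in jazD and 202 and 211 CPM in Col-0, so that LNJ-OX replicate 2 stood apart from replicate 1. The list median was 1.93, against 2.71 without LNJ-OX replicate 1, where 5 markers were called higher, and 0.27 without LNJ-OX replicate 2, where none was. With all libraries no marker was called, 1 of 14 tested was higher at the wider threshold (ATA7, edgeR adjusted p 0.0482), 8 had an unadjusted p-value under 0.05 (edgeR), and AGP11 was at 0 in LNJ-OX replicate 1. The 14 flowering and floral markers summed to 264 and 296 CPM in LNJ-OX, against 217 and 240.4 CPM in jazD and 336 and 333 CPM in Col-0. None of the 13 tested was called, 11 had log2 fold changes above 0 and 7 had an unadjusted p-value under 0.05 (edgeR). Their median was 0.81, against 1.29 without LNJ-OX replicate 1 and 0.53 without LNJ-OX replicate 2. SEP2, a floral organ identity gene, had 12.7 and 19.4 CPM in LNJ-OX, against 4.93 and 5.66 CPM in jazD (log2 fold change 1.6, edgeR adjusted p 0.0205). The 9 root markers summed to 47.2 and 27.6 CPM in LNJ-OX, against 100.1 and 174 CPM in jazD, nearly all of it PYK10. BGLU21 and EXPA18 were at 0 in every library. Of the 3 root markers tested, PYK10 was lower in LNJ-OX at the wider threshold (log2 fold change -1.94). IRT1 (2.40) and NRT2.1 (0.13) went the other way at low counts and did not pass, and the median was 0.13. The part of these markers in the results was not tested. In whole shoots, fewer cells of a type and less RNA per cell cannot be told apart.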

How the data were processed

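RNA was sequenced from shoots of LNJ-OX, jazD and Col-0 plants, 2 libraries each. Per the labels, the authors trimmed reads with Trim Galore 0.6.3, aligned them to TAIR10 with HISAT2 2.1.0 and deposited raw counts per gene from HTSeq 0.9.1. The strand setting is not given in the sources used here, so antisense and overlapping genes are uncertain. The labels give an age of 21 days and shoots, whereas the study's methods describe leaves of slightly younger plants. The deposited tables of limma 3.38.3 hold the authors' fold changes and p-values against Col-0 and were not used. Counting intervals and floors cover counting error only.

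Of 32833 genes, 21374 passed edgeR's expression filter. All 6 libraries entered a quasi-likelihood fit (edgeR 4.0.16, R 4.3.3) by genotype with TMM scaling, and LNJ-OX was contrasted with jazD, so that Col-0 informed the spread (3 residual degrees of freedom). P-values were adjusted over all genes by the Benjamini-Hochberg method. limma-voom (3.58.1), DESeq2 (1.42.0), other scalings, filters and thresholds, a replicate block and omission of each library were alternatives. Genes were matched by identifier to a TAIR10.1 table for symbols and order.

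Named genes were the 8 largest changes in each direction at 10 CPM or more without overlap, up to 4 at the count floor and the 4 largest CPM differences in each direction, called list members, up to 3 further members of each list, and AFP2, NINJA and the JAZ genes. ERF1, VSP2, TAO1, AT5G45500, the genes with promoter matches and the list members given as not passing were added with their values in view. The comparison, gene lists and rules were chosen with earlier results of these data known.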

Additional observations from a re-analysis of the deposited data

How the results depend on the processing

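Against 96 genes called higher and 71 called lower, there were 147 and 96 with Col-0 left out of the fit, 596 and 343 with no filter on low counts, 318 and 184 with DESeq2, and 280 and 161 with the adjusted p-value limit at 0.05. At the wider threshold (280 and 161), there were 424 and 263 without Col-0, 884 and 520 with no filter and 507 and 305 with DESeq2. Other scalings, a filter at 1 CPM, limma-voom, a test against the fold limit and omission of the PDF1 genes gave between 66 and 104 higher and between 53 and 71 lower.

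Leaving out 1 library gave between 19 and 141 called higher, between 33 and 95 called lower, and at the wider threshold between 55 and 390 higher and between 67 and 251 lower. The low ends were without jazD replicate 2. Without jazD replicate 1 the wider threshold gave 111 and 93, without LNJ-OX replicate 2 it gave 102 lower, and without Col-0 replicate 1 it gave 244 lower. In these fits the lone library is assumed to vary like the other genotypes. The cause was not tested. Called under every alternative fit were 19 genes higher and 22 lower.

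With the replicate number as a block, 220 genes were called higher and 135 lower, and 469 and 271 at the wider threshold. Deviations of same-numbered LNJ-OX and jazD libraries correlated at -0.00281, so the numbers were not taken as a pairing.

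Sign changes concerned 5 uncalled genes, counting JAZ11, whose fitted value was -0.00 and which was between -0.28 and 0.22 when 1 library was left out. Of the others, RD29B was between -5.51 and 0.84, NYC1 between -0.70 and 0.06, NRT2.1 between -0.36 and 0.62 and JAZ3 between -0.09 and 0.29 on the log2 scale when 1 library was left out. In the 100 bases before the start, the G-box share was 2.08% of higher and 7.04% of lower genes, against 4.13% of all tested. The W-box share was 28.1% of higher and 15.5% of lower genes, against 13% of all. GCCGCC stood in this window before 0% of higher and 7.04% of lower genes, against 0.756% of all.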
